A study of Mus musculus with 6 samples.

Results

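Otx1, Msx1, Zic1, Zic2, Zic4, Wnt7a, Wnt7b and Rspo1 were grouped as transcription and Wnt factors of the rim of the developing retina. Their RNA was examined here in the NMDA-injured retina with and without stem cell factor (SCF). The grouping is a label, and a role at the rim was not tested for any of them. The 8 genes were selected by name from measured values of the same libraries and the same comparison, so their levels in NMDA + SCF against NMDA + PBS are given as a description, with no test. In all, 25202 genes had an FPKM above 0 in some library, and 7 of the 8 had such a value in the transcripts that every library lists. All animals were wild type C57BL/6 mice of 5 weeks by the labels (C57BL/6J in the study's methods), and retinal RNA was measured. Both groups received NMDA, a glutamate receptor agonist that injures retinal ganglion cells, by injection into the vitreous. The NMDA + SCF group (3 libraries) was given SCF, the ligand of the receptor c-kit, 2 days later, and the NMDA + PBS group (3 libraries) was given PBS. Retinas were taken 1 week after that. No uninjured retina was compared here, and the number of mice behind a library is not given in the sources used here. Nothing states that the libraries came from separate animals, so a p-value measures only the spread between libraries, which may be technical.

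The ciliary margin is the rim where the neural retina passes into the pigmented and non-pigmented epithelium of the ciliary body and the iris. During development it is set apart from the neural retina by canonical Wnt signaling, in which a secreted Wnt ligand binds a Frizzled receptor and an Lrp co-receptor and beta-catenin is stabilized. Rspo1 encodes an R-spondin, a secreted protein that binds Lgr receptors and holds back the ubiquitin ligases Znrf3 and Rnf43, which remove Frizzled from the cell surface. Wnt7a and Wnt7b encode 2 closely related Wnt ligands. Otx1 and Msx1 encode homeodomain transcription factors, and Zic1, Zic2 and Zic4 encode zinc finger transcription factors, of which Zic2 is also known for guiding the axons of ventrotemporal retinal ganglion cells.

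The files give FPKM per transcript, a count of fragments per length of transcript and per depth of library, and the 6 libraries were not written on 1 list of transcripts. NMDA + PBS replicate 1 and the 3 NMDA + SCF libraries share a list, and NMDA + PBS replicates 2 and 3 share another one. The 2 lists hold 46933 Ensembl transcripts in common, 7529 are found only in the 4 files and 8966 only in the other 2. The steps between FPKM values imply a total of 3404340 to 4440580 fragments per library, or 14.1 to 18.2% of clean read pairs. Fragment numbers given below were recovered from FPKM in the same way and are not counts given by the authors. Values of 3 libraries are given in the order of replicates 1, 2 and 3. The list difference bears on the secreted factors most, which the primers of the study's qPCR for these genes show.

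Each primer is printed 5′ to 3′ with nothing marked in capitals, to show which transcripts can be seen by which measurement.
Wnt7a forward: ggacgccatcatcgtcatag
Wnt7a reverse: tccaacggccatttcggaa
Wnt7b forward: ttcacctatgccatcacgg
Wnt7b reverse: gcctggttgtagtagcctt
Rspo1 forward: tgcaagatcgagcactgt
Rspo1 reverse: agcggcccttgtgtaagta

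The Wnt7a pair lies in exon 2 of 4 of the only listed Wnt7a transcript, at chr6:91408723-91408802 on the minus strand (GRCm38), and bounds a product of 80 bp. The Wnt7b pair lies in exon 3 of 4 of all 3 listed coding transcripts, at chr15:85543808-85543923 on the minus strand, with a product of 116 bp. Of those 3 transcripts, 1 is listed in all 6 files and 2 only in the 4 files. The Rspo1 pair lies in exon 4 of 6 of the coding transcript, at chr4:125007149-125007233 on the plus strand, with a product of 85 bp. That coding transcript is listed only in the 4 files. The Rspo1 transcript that all 6 files list is a processed transcript of 446 nt, holds neither primer and stood at 0 in all 6 libraries. Rspo1 therefore had no measured value in NMDA + PBS replicates 2 and 3.

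Among the secreted factors, Wnt7a was found at very different levels in the NMDA + SCF libraries. Wnt7a (ENSMUSG00000030093) lies at chr6:91363981-91411363 on the minus strand. Its FPKM was 0.0926, 0.0793 and 0.142 in NMDA + PBS, from 1, 1 and 2 fragments. In NMDA + SCF it was 3.96, 0.362 and 6.02, from 43, 4 and 66 fragments. The groups did not overlap, but NMDA + SCF replicates 1 and 3 averaged 13.8 times the level of replicate 2. The group means were 0.105 ± 0.0330 and 3.45 ± 2.86 FPKM (SD, n = 3), a difference of 1.71 on the log2(FPKM + 1) scale, which understates the change of a low gene. In replicate 2 the value rests on 4 fragments, and those of the controls on at most 2.

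In the coding transcript that all files list, Wnt7b (ENSMUSG00000022382, chr15:85535437-85582473, minus strand) stood at 0 in each control library, as it did in NMDA + SCF replicate 2. It reached 0.926 FPKM there in NMDA + SCF replicate 1 and 0.573 FPKM in replicate 3, from 8 and 5 fragments. NMDA + PBS replicates 2 and 3 have no value for the other coding transcripts, so Wnt7b as a whole was not measured in them. Over all 3 coding transcripts of the longer list the values were 1.88 and 1.603 FPKM, from 19 and 17 fragments, with 0 in NMDA + PBS replicate 1 and in NMDA + SCF replicate 2. Thus RNA of this ligand was counted in the same libraries in which Wnt7a was high. Set against a floor of 3 fragments per NMDA + PBS library, the mean of NMDA + SCF was at least 1.64-fold higher for the common transcript. Without NMDA + SCF replicate 1 the mean falls under that floor and no fold can be given.

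The coding transcript of Rspo1 (ENSMUSG00000028871, chr4:124986430-125009099, plus strand) had the highest level of the 3 secreted factors in NMDA + SCF replicates 1 and 3. It stood at 0 in NMDA + PBS replicate 1, and at 8.43, 0.313 and 8.04 FPKM in NMDA + SCF, from 53, 2 and 51 fragments. Replicates 1 and 3 averaged 26.3 times the level of replicate 2, whose 2 fragments lie under the floor. Against 3 fragments in NMDA + PBS replicate 1, the only control library that lists the transcript, the mean of NMDA + SCF was at least 11.6-fold higher. That bound ran from 8.69 to 17.1 when 1 NMDA + SCF library was left out, and the control side has no replicate.

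Msx1 (ENSMUSG00000048450, chr5:37820485-37824583, minus strand) was the transcription factor whose values came nearest to those of the Wnt ligands. It showed 0.460, 0.520 and 0.466 FPKM in NMDA + PBS, a narrow range from 3, 4 and 4 fragments. NMDA + SCF showed 3.32, 1.04 and 2.69 FPKM, from 22, 7 and 18 fragments. All 3 lay above the controls, and replicates 1 and 3 averaged 2.88 times replicate 2. The means were 0.482 ± 0.0331 and 2.35 ± 1.18 FPKM (SD, n = 3), a log2 difference of 1.11. Nearly all fragments belonged to the coding transcript, which took 21 of 22, 6 of 7 and 18 of 18 in NMDA + SCF.

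Otx1 (ENSMUSG00000005917, chr11:21994764-22002897, minus strand) was close to the limit of detection. Its FPKM was 0.0557, 0.0954 and 0.214 in NMDA + PBS and 0.221, 0.218 and 0.329 in NMDA + SCF, from 1, 2, 5, 4, 4 and 6 fragments. All of these fragments belonged to a retained intron transcript of 5273 nt. The coding transcript is listed in the 4 files alone and stood at 0 in each of them. The lowest NMDA + SCF value exceeded the highest NMDA + PBS value by less than the worth of 1 fragment, and under upper quartile scaling the groups overlapped. A difference in Otx1 was not detectable at this depth.

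**Figure D1:**
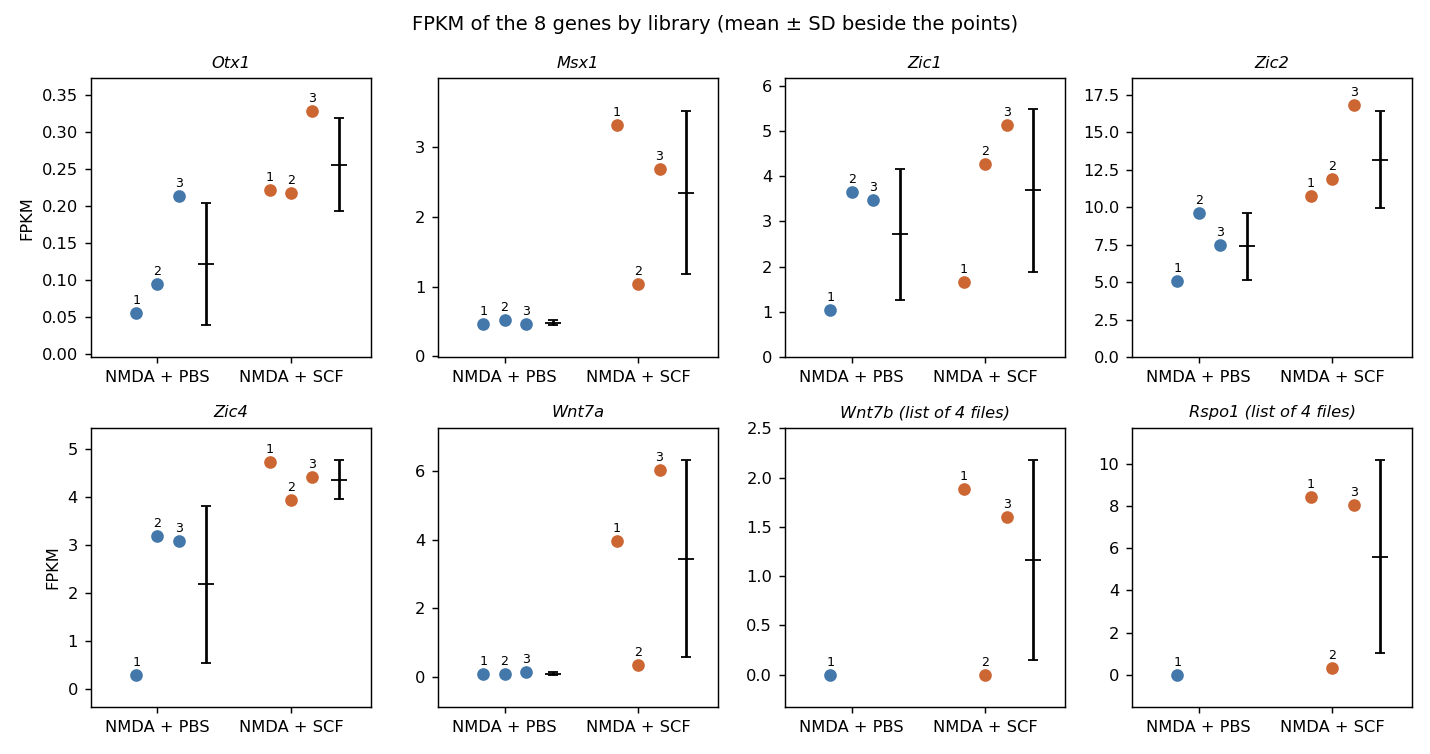
FPKM of each gene (linear axis) in NMDA + PBS (blue) and NMDA + SCF (orange), 1 point per library with its replicate number, and the mean ± SD beside the points. Wnt7b and Rspo1 are summed over the transcript list of the 4 files, which leaves 1 control library and no SD there. NMDA + SCF replicates 1 and 3 stand far above replicate 2 for Wnt7a, Wnt7b and Rspo1, while the 3 NMDA + SCF points of Zic4 lie between 3.93 and 4.73 FPKM.

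The Zic genes were the most abundant of the 8 in the mean of the controls, and did not share the gap between NMDA + SCF replicate 2 and the other 2 libraries. Zic2 (ENSMUSG00000061524, chr14:122475435-122479852, plus strand) had 5.08, 9.58 and 7.49 FPKM in NMDA + PBS from 40, 93 and 79 fragments. It had 10.8, 11.9 and 16.8 FPKM in NMDA + SCF from 90, 101 and 131 fragments. The groups did not overlap, although the highest control and the lowest treated library were close. The means were 7.39 ± 2.25 and 13.2 ± 3.22 FPKM (SD, n = 3), a log2 difference of 0.77. Here NMDA + SCF replicates 1 and 3 averaged only 1.16 times replicate 2.

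Zic1 (ENSMUSG00000032368, chr9:91358058-91365810, minus strand) overlapped between the groups. It showed 1.05, 3.64 and 3.46 FPKM in NMDA + PBS from 20, 66 and 73 fragments, and 1.67, 4.27 and 5.13 FPKM in NMDA + SCF from 32, 57 and 72 fragments. NMDA + SCF replicate 1, one of the libraries with high Wnt7a, thus had less Zic1 than 2 of the 3 controls. The means, 2.72 ± 1.45 and 3.69 ± 1.80 FPKM (SD, n = 3), differed by 0.34 on the log2 scale. Without NMDA + PBS replicate 1 the difference turned to -0.0433.

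Zic4 (ENSMUSG00000036972, chr9:91362413-91389348, plus strand) starts inside Zic1, on the opposite strand. Its FPKM was 0.300, 3.17 and 3.08 in NMDA + PBS and 4.73, 3.93 and 4.41 in NMDA + SCF, from 3, 33, 19, 29, 21 and 27 fragments. The FPKM groups did not overlap, with means of 2.18 ± 1.63 and 4.35 ± 0.403 (SD, n = 3) and a log2 difference of 0.93, which was 0.37 without NMDA + PBS replicate 1. This separation rested on 1 short transcript of 322 nt, which shares 60 bases with an exon of Zic1 (chr9:91362459-91362518). It held 1 fragment in each NMDA + SCF library and none in NMDA + PBS, and 1 fragment of so short a transcript is worth about 0.9 FPKM. Without it the NMDA + SCF values were 3.82, 3.03 and 3.51 FPKM and the groups overlapped. They also overlapped once fragments were scaled to library size alone, where NMDA + PBS replicate 2 stood above 2 NMDA + SCF libraries. Whether fragments were counted by strand is not given in the sources used here, so reads of the overlap cannot be assigned with certainty to Zic1 or Zic4.

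In NMDA + PBS replicate 1 all 3 Zic genes were low together, at 0.295 times the mean of NMDA + PBS replicates 2 and 3 for Zic1, 0.595 for Zic2 and 0.0959 for Zic4. The summed FPKM of the 3 genes was 6.43, 16.4 and 14.03 in NMDA + PBS and 17.2, 20.1 and 26.4 in NMDA + SCF. So 2 of the 3 control libraries reached a sum close to the lowest NMDA + SCF library. Coding transcripts took nearly all fragments of Zic1 and Zic2, but only 1 of 3, 18 of 33, 5 of 19, 19 of 29, 9 of 21 and 12 of 27 fragments of Zic4 in the 6 libraries.

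**Figure D2:**
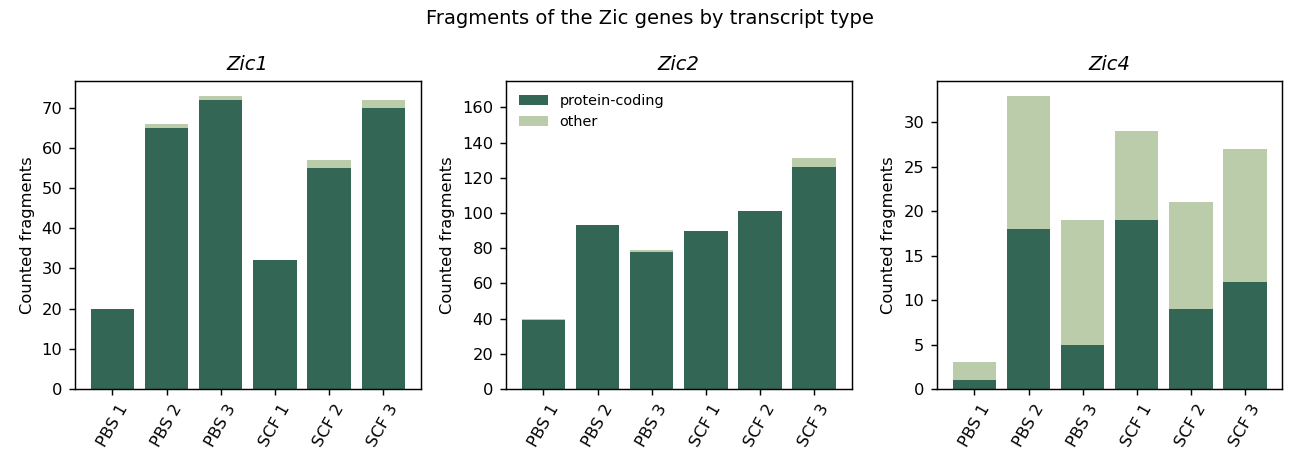
Fragments recovered from FPKM (linear axis, labeled counted fragments) of Zic1, Zic2 and Zic4 in each library, divided into protein-coding transcripts (dark) and other transcripts (light) that all files list. The low bars of NMDA + PBS replicate 1 (20, 40 and 3 fragments) and the large share of other transcripts in Zic4 can be seen; fragments are not scaled to library size, which differs by up to 4440580 against 3404340.

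In all, 5 of the 8 genes (Otx1, Msx1, Zic2, Zic4 and Wnt7a) had every NMDA + SCF library above every NMDA + PBS library by FPKM, where 7.63% of the 25202 genes did. Likewise, 5 genes (Otx1, Msx1, Zic4, Wnt7a and Wnt7b) had NMDA + SCF replicates 1 and 3 as the highest pair of the 6 libraries, against 7.27% of all genes. The 8 genes were selected on this contrast, and nothing is read from these counts. Under the test across all genes (limma on log2(FPKM + 1), fold change of at least 2 and Benjamini-Hochberg adjusted p of at most 0.001) none of the 8 was among genes called, because 0 of 25202 genes (0%) were called. At an unadjusted p of at most 0.05, 2324 genes stood out, and limma-voom on the recovered fragments also called 0 genes. Without NMDA + PBS replicate 1, limma called 55 genes, and 849 passed an adjusted p of 0.05. The controls then left were both written on the transcript list that no NMDA + SCF library has. Treatment and list cannot be told apart there.

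The level order by mean FPKM in NMDA + SCF was Zic2, Zic4, Zic1, Wnt7a, Msx1, Wnt7b and Otx1 for the transcripts common to all files. Zic2 stood above Zic4 in every NMDA + SCF library, and every Msx1 value there stood above every Wnt7b value. Zic4 and Zic1, Zic1 and Wnt7a, Wnt7a and Msx1, and Wnt7b and Otx1 lay within each other's spread. The coding transcript of Rspo1, which is not in that order, exceeded Zic1 and Zic4 in NMDA + SCF replicates 1 and 3 and lay under both in replicate 2. In NMDA + PBS the order was Zic2, Zic1, Zic4, Msx1, Otx1 and Wnt7a, with Wnt7b at 0. Zic1 and Zic4 stood within each other's spread there as well, as did Otx1 and Wnt7a. Zic4 and Msx1 overlapped too, with Zic4 at 0.300 FPKM and Msx1 at 0.460 FPKM in NMDA + PBS replicate 1.

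Upstream sequence of 5 of the 8 genes was found in the RefSeq promoter table (GRCm38.p6). Msx1, Wnt7a and Rspo1 are printed because their values were high in the same NMDA + SCF libraries. Capitals mark the CCAAT box, as CCAAT or, on the other strand, ATTGG. The Wnt7a stretch ends 10 bases before the RefSeq start, where the Ensembl transcript begins.
Msx1, chr5:37824586-37824835, minus strand: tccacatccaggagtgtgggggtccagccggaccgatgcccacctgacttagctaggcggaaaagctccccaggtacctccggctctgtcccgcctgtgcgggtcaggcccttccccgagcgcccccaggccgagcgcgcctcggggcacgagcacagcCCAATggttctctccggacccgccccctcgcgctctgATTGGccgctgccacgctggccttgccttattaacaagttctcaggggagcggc
Wnt7a, chr6:91411364-91411603, minus strand: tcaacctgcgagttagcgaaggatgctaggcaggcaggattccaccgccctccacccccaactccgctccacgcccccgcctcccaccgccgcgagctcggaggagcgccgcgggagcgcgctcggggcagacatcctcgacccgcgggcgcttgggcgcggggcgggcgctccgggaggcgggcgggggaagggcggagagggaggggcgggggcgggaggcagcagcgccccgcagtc
Rspo1, chr4:124986180-124986429, plus strand: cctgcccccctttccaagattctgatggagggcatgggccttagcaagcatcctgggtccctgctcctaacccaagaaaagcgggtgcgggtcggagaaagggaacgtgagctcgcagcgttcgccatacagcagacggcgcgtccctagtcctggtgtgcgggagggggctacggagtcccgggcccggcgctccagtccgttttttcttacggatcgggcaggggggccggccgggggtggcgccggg

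In 250 bases before the start, the 5 genes held 20 (Msx1), 27 (Zic1), 4 (Zic4), 34 (Wnt7a) and 22 (Rspo1) CpG dinucleotides, where the median of 27025 promoters was 6. Only Zic4 lay under that median. Its window, chr9:91368722-91368971, lies inside the gene, whose first listed start is 91362413, and before its longest coding transcript, which starts at 91378642. Windows of other Zic4 starts were not examined. The letters of a TCF/LEF site (CTTTGAT or CTTTGAA on either strand) were found in none of the 5 and in 7.67% of all promoters. The same held for an OTX motif (TAATCC, 6.38% of promoters), an MSX motif (CAATTA, 7.34%) and a TATA box (TATAAA, 12.97%). CCAAT boxes were found in Msx1 (2) and Zic1 (2), and 34.5% of promoters hold at least 1. The CCAAT box and the MSX motif can share letters, and an absent match says only that the letters are not in this window.

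The lists of related genes hold 118 genes, of which 105 had a value. None was called by limma at the threshold above and none had an adjusted p of at most 0.05, the smallest being 0.536. At an unadjusted p of at most 0.05, 8 of the 105 (7.62%) were higher and 7 (6.67%) lower in NMDA + SCF, where 4.33% and 4.9% of all genes were. The 7 include Csnk1a1 and Dkk3, whose high values were in NMDA + PBS replicates 2 and 3, the files of the other transcript list. The balance turned with single libraries, to 4 higher and 10 lower without NMDA + PBS replicate 1 (where group and transcript list coincide) and to 16 higher and 6 lower without NMDA + PBS replicate 2. Over all genes, 1090 were higher and 1234 lower, against 643 and 1555 under upper quartile scaling and 1400 and 1175 with voom. Every NMDA + SCF library lay above every control for 13 of the 105 (12.4%, beside 7.63% of all genes), and NMDA + SCF replicates 1 and 3 were the highest pair for 16 (15.2%, beside 7.27%). The median log2 difference over the 105 genes was 0.03, beside -0.01 over all genes. The lists were chosen with earlier results of these data known, so these shares are a description only.

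Close relatives of the 8 genes did not follow a shared direction. Msx2, the other Msx homeobox gene of the list, had 0, 0.160 and 0.0918 FPKM in NMDA + PBS and 1.14, 0.117 and 0.825 FPKM in NMDA + SCF, so that replicates 1 and 3 were high and replicate 2 was not (limma, adjusted p = 0.536). Crx, the Otx-type factor of photoreceptors, had 16.6, 18.5 and 20.0 FPKM in NMDA + PBS and 13.2, 11.2 and 9.11 in NMDA + SCF, with no overlap (limma, adjusted p = 0.536). Over the 8 relatives with a value the median log2 difference was 0.19, 0 were higher and 2 were lower at an unadjusted p of at most 0.05.

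Among 21 other genes of the ciliary margin and ciliary epithelium with a value, 3 were higher and 0 lower at an unadjusted p of at most 0.05, with a median log2 difference of 0.07. Wfdc1, a secreted protease inhibitor-like protein, showed 8.14, 6.05 and 5.26 FPKM in NMDA + PBS and 11.5, 11.5 and 14.97 FPKM in NMDA + SCF (limma, adjusted p = 0.536). All 3 NMDA + SCF libraries were alike in this gene, including replicate 2. Rdh10, an enzyme of retinoic acid synthesis and the most abundant of the list, overlapped between the groups, with a log2 difference of -0.12 (limma, adjusted p = 0.863). Cdon, a co-receptor of Hedgehog signaling, had the lowest test statistic with a log2 difference of -0.25 (limma, adjusted p = 0.807).

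Of 14 other Wnt ligands with a value, 0 passed an unadjusted p of 0.05 in either direction, and their median log2 difference was -0.05. Wnt2b, a ligand known from the ciliary margin, was the most abundant at 10.3, 9.47 and 11.7 FPKM in NMDA + PBS and 10.2, 10.7 and 9.07 FPKM in NMDA + SCF, a difference of -0.07 on the log2 scale (SE 0.195). It thus stood above Wnt7a in every library. Wnt16 lay at the lower end with a log2 difference of -0.62 (limma, adjusted p = 0.580) and Wnt8a at the upper end with 0.29 (limma, adjusted p = 0.630). Of the 4 genes of Wnt secretion and ligand processing with a value, none passed an unadjusted p of 0.05, and Wls, which carries Wnt proteins to the cell surface, had a log2 difference of 0.52 (limma, adjusted p = 0.592). The glypicans Gpc4, the most abundant of these genes, and Gpc6 differed by 0.40 and -0.39 (limma, adjusted p = 0.688 for both).

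Of the 22 receptors and co-receptors with a value, 0 were higher and 1 was lower at an unadjusted p of at most 0.05. Lrp6, the Wnt co-receptor, was the most abundant and differed by 0.31 on the log2 scale (limma, adjusted p = 0.612). Reck, which takes part in the recognition of Wnt7 ligands, had 1.67, 0.825 and 1.58 FPKM in NMDA + PBS and 4.34, 4.14 and 1.64 FPKM in NMDA + SCF, an overlap by replicate 3 (limma, adjusted p = 0.542). Ryk, an atypical Wnt receptor, was the lower one, with 4.09, 8.44 and 4.58 FPKM in NMDA + PBS and 2.14, 1.08 and 1.61 FPKM in NMDA + SCF (limma, adjusted p = 0.536).

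Inside the cell, 1 of 14 genes of the beta-catenin pathway was higher and 3 were lower at an unadjusted p of at most 0.05. The 3 include Csnk1a1, with 1.05, 87.8 and 71.9 FPKM in NMDA + PBS and at most 0.763 FPKM in NMDA + SCF. Its high values were in the files of the other transcript list. Dvl1, which relays the signal from Frizzled, showed 3.20, 5.06 and 2.41 FPKM in NMDA + PBS and 7.76, 5.66 and 8.30 FPKM in NMDA + SCF (limma, adjusted p = 0.536). Axin1, a scaffold of the complex that degrades beta-catenin, had 3.03, 7.39 and 3.52 FPKM in NMDA + PBS and was listed at 0 in all 3 NMDA + SCF libraries (limma, adjusted p = 0.536). Gsk3b, a kinase of that complex and the most abundant gene of the list, differed by -0.19 on the log2 scale (limma, adjusted p = 0.706). Among 10 target genes of beta-catenin, Axin2 differed by -0.64 (limma, adjusted p = 0.565) and Bambi by 0.63 (limma, adjusted p = 0.536) on the log2 scale. Sox9, the most abundant target, differed by -0.21 (limma, adjusted p = 0.710). Bambi, a pseudoreceptor of the TGF-beta family, was the only target higher at an unadjusted p of 0.05 and 0 targets were lower.

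Of 12 secreted inhibitors and their receptors, 3 were higher and 1 was lower at an unadjusted p of at most 0.05. Sfrp1, which binds Wnt proteins outside the cell and was picked here after its values were seen, had 6.65, 8.86 and 5.61 FPKM in NMDA + PBS and 34.8, 10.1 and 44.6 FPKM in NMDA + SCF. NMDA + SCF replicates 1 and 3 were the high ones, as for Wnt7a (limma, log2 difference 1.73, adjusted p = 0.536). Dkk1, an inhibitor of Lrp co-receptors, was at 0 in all controls and at 0.361, 0.474 and 0.238 FPKM in NMDA + SCF, with at most 4 fragments. Dkk3 reached 979.9 FPKM in NMDA + PBS replicate 2 and 1007 FPKM in replicate 3 and stood between 0.0856 and 0.262 FPKM in the other 4, NMDA + PBS replicate 1 included, so its high values were in the 2 files with the other transcript list.

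**Figure D3:**
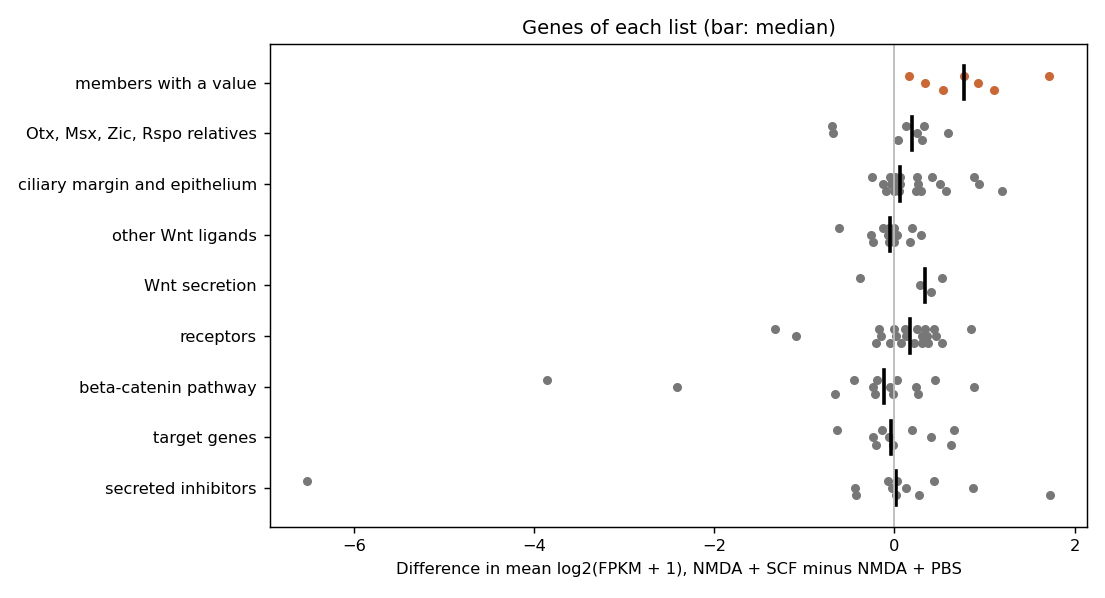
Difference in mean log2(FPKM + 1), NMDA + SCF minus NMDA + PBS (horizontal axis), for each gene with a value, with the members on top (orange) and the lists of related genes (gray) underneath. The bar is the median of each list. Members lie to the right of 0, as their selection would give, and list medians lie between -0.12 and 0.34, while Dkk3 is at -6.52.

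Markers of other ocular tissue differed between the same libraries. Of 23 lens genes, 19 had a value, and their summed FPKM was 35.3, 356.3 and 347.7 in NMDA + PBS. It was 5659, 679.0 and 12104 in NMDA + SCF, in the order of Wnt7a over the NMDA + SCF libraries. The number of these 19 genes at 0 was 10, 4 and 3 in the controls and 1, 2 and 1 in NMDA + SCF, and Crygs, a crystallin, was the most abundant with 16.6 to 149.8 FPKM in NMDA + PBS and 354.3 to 6280 FPKM in NMDA + SCF. The 7 pigment epithelium genes summed to 195.9 to 800.1 FPKM in NMDA + PBS and to 712.5 to 939.4 in NMDA + SCF, nearly all of it from Ttr, the thyroid hormone carrier, at 176.1 to 778.8 and 694.1 to 918.9 FPKM. The 5 melanin synthesis genes summed to 50.9 to 209.7 and 125.6 to 310.8 FPKM, and the 4 cornea genes to 15.04 to 46.3 and 3.73 to 13.04 FPKM, in the same order. The 5 genes of smooth muscle summed to 5.54 to 50.8 FPKM in NMDA + PBS and 3.17 to 7.34 in NMDA + SCF. Acta2, smooth muscle actin, made most of the upper control sums with 45.3 and 22.0 FPKM in NMDA + PBS replicates 2 and 3, the files of the other transcript list, beside 0.660 in replicate 1 and at most 0.812 in NMDA + SCF. The 8 periocular genes summed to 7.83 to 74.1 FPKM in NMDA + PBS and 22.8 to 33.1 in NMDA + SCF. Rod and cone genes (6 with a value) gave 1143 to 1469 and 1480 to 1723 FPKM, and inner retina genes (14 with a value) gave 2368 to 4553 and 3538 to 3673 FPKM. Most of the inner retina sum came from Glul, glutamine synthetase, at 1960 to 3899 FPKM in NMDA + PBS and 2993 to 3178 in NMDA + SCF. The rod and cone genes with a value were above 0 in every library, and 1 inner retina gene was at 0 in NMDA + SCF replicate 1. The part of these tissues in the levels of the 8 genes was not tested, and in such bulk RNA fewer cells of a type and less RNA per cell cannot be told apart.

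**Figure D4:**
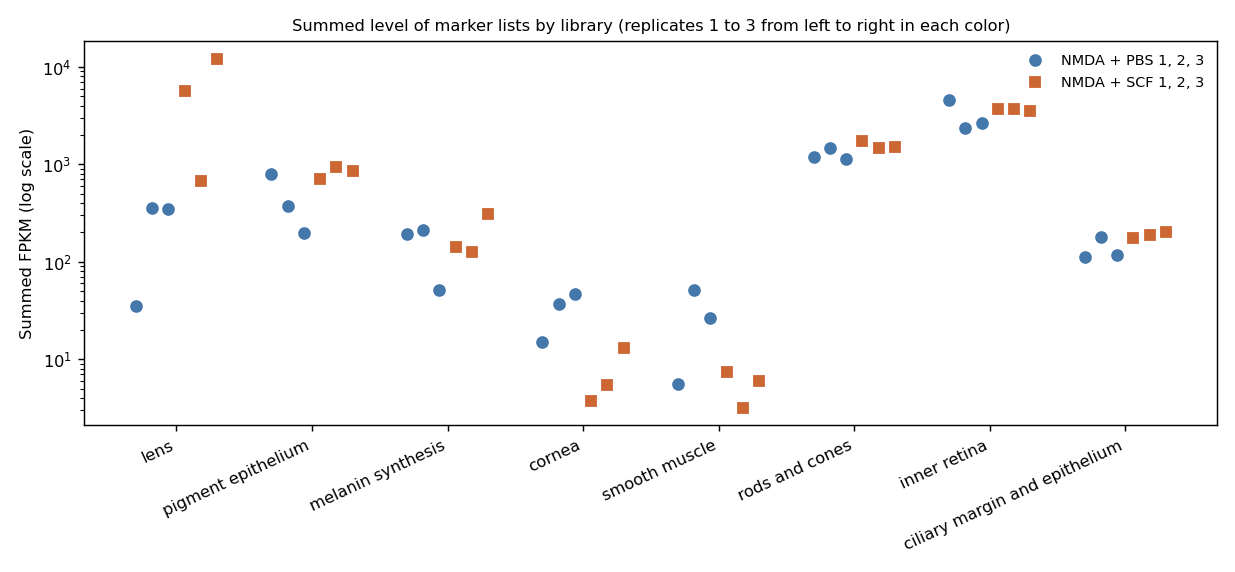
Summed FPKM (log axis) of marker lists in the 6 libraries, NMDA + PBS as blue circles and NMDA + SCF as orange squares, with replicates 1, 2 and 3 from left to right within each color. Lens genes span 35.3 to 12104 FPKM, with NMDA + SCF replicates 1 and 3 at the top, while rod and cone genes span 1143 to 1723 FPKM.

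To find genes of like pattern, 16529 genes were ranked by Pearson's r over the 6 libraries with the mean log2(FPKM + 1) of the 7 members that had a value. That mean was 0.68, 1.22 and 1.18 in NMDA + PBS and 1.88, 1.45 and 2.14 in NMDA + SCF. The 10 highest were Crygs (r = 0.996), Grifin (r = 0.990), H2afz, Cryba2, Cdh5, Rfx3, 1700067P10Rik, Exoc6b, Slc4a5 and 2310061I04Rik (r = 0.977). Crygs, Grifin and Cryba2 encode proteins of the lens and ran over a much wider range than the members, with Cryba2 at 0.816 to 13.2 FPKM in NMDA + PBS and 18.7 to 811.5 in NMDA + SCF. Cdh5, the cadherin of endothelial cells, stayed between 6.76 and 8.69 FPKM in all libraries. The points share libraries and transcript lists, and r over 6 libraries is a description only.

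**Figure D5:**
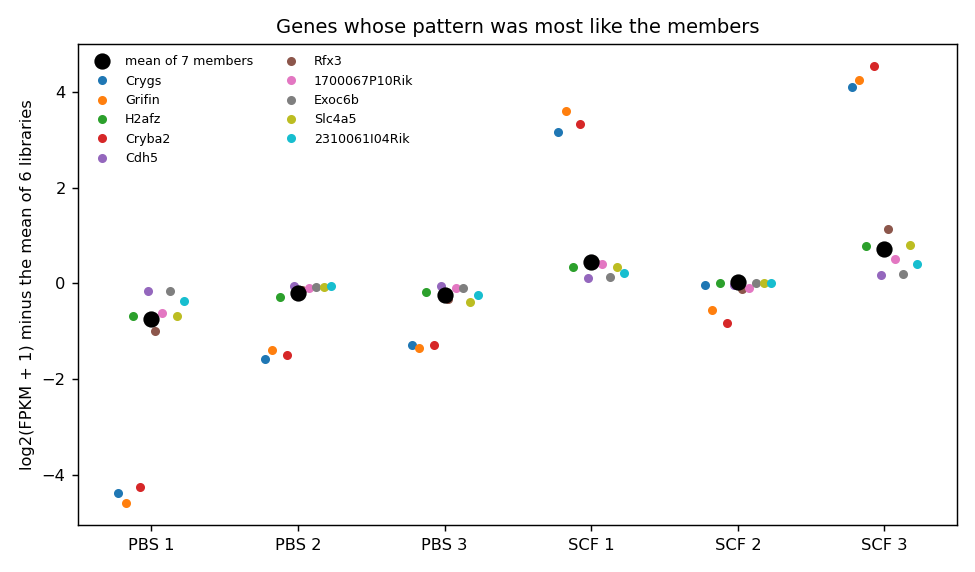
Level of the 10 genes most like the members (small points) and of the mean of the 7 members (large black points) in each library, as log2(FPKM + 1) minus its mean over 6 libraries. In all 10 genes NMDA + SCF replicate 3 is highest and NMDA + PBS replicate 1 lowest, and Crygs, Grifin and Cryba2 spread far more widely than the others.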

How the data were processed

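RNA from retina (3 libraries of each group, NMDA + PBS and NMDA + SCF) was enriched with oligo (dT) beads and sequenced on an Illumina HiSeq, and clean reads numbered 44925938 to 48783182 per library. The authors deposited FPKM per transcript in 1 file per library, with replicates not pooled, and a table of sequencing totals with counts of clean reads and percent of bases at quality 30 or more. The aligner and counter are not given in the sources used here. The submitters' processing notes name mm9, but 98.2% of the 63313 Ensembl transcripts found in GENCODE M21 have its positions, so GRCm38 coordinates are given. Transcripts of a merged assembly without gene names (8.85 to 11.4% of the FPKM sum) were left out.

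Gene values are sums of FPKM over those of its Ensembl transcripts that all 6 files hold (46933 in total). FPKM times length gave whole fragments, within 0.05, for at least 99.95% of values in every library, for transcripts with GENCODE positions. Groups were compared with limma 3.58.1 (R 4.3.3) on log2(FPKM + 1) with a variance trend and condition only, without a filter. The fit was also run on simulated data. Spread was capped there and the planted changes were large and outside the lowest genes. Power for low or variable genes was therefore not tested. Values of the 8 genes carry no test. Floors of 3 fragments cover counting error only.

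The members and lists were chosen with earlier results of these data known. Named genes are the members, the most abundant gene and the genes with the largest and smallest moderated t statistic of a list (over 3 fragments in a library or, without fragments, 1 FPKM) and the 10 genes most like the members, which needed more than 3 fragments (or 1 FPKM) in 2 libraries. Of the genes that the rule takes from the marker lists of tissues, only Crygs, Prox1, Ttr, Acta2 and Glul are named. Sfrp1, Csnk1a1 and Maf were named outside the rule, after their values were seen. Alternatives were a pseudocount of 0.1, a mean FPKM of at least 0.1, upper quartile scaling, all listed transcripts, voom, a replicate block and each library left out. Tables were made with Python 3.11.15, pandas 2.3.3 and scipy 1.17.1.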

Additional observations from a re-analysis of the deposited data

Results flagged for a closer look

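Transcripts that only 4 of the 6 files list, and that therefore stay out of the gene sums over all 6 libraries, held fragments of 2 of the secreted factors. For Wnt7b these transcripts gave 0.953 FPKM in NMDA + SCF replicate 1 and 1.03 FPKM in replicate 3, above 0 in the control library that lists them. For Rspo1 the coding transcript gave 8.43 FPKM in NMDA + SCF replicate 1 and 8.04 FPKM in replicate 3, again above 0 in NMDA + PBS replicate 1. NMDA + PBS replicates 2 and 3 have no value for either. No group held enough libraries to look for a single one standing apart.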

How the results depend on the processing

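Under every alternative run the count of called genes stayed at 0, except that 55 genes were called without NMDA + PBS replicate 1 (range 0 to 55 over libraries left out), where 849 genes had an adjusted p of at most 0.05. In that setting group and transcript list coincide, so treatment and list cannot be told apart. Of the related genes, 0 to 2 were called when a library was left out, the 2 being Csnk1a1 and Dkk3 without NMDA + PBS replicate 1, both high in the files of the other transcript list. The number at an unadjusted p of at most 0.05 was 15, and 8 to 22 with a library left out, with 8 without NMDA + SCF replicate 1 and 8 without replicate 3. The labels do not say whether replicate numbers pair the libraries. Same-numbered deviations correlated at -0.050, -0.046 and -0.077, so no shared deviation was seen, which cannot show how the libraries were prepared. With a replicate block, 0 genes were called and 13 related genes were at an unadjusted p of at most 0.05. The 5 members whose groups did not overlap became 4 by upper quartile scaling (Otx1 overlapped) and by recovered fragments scaled to library size (Zic4), 6 with all listed transcripts, where a transcript that a file does not list counts as 0 (Rspo1), and 5 or 6 with a library left out. Zic4 without its transcript inside Zic1, an alternative chosen after seeing the data, gave 4. The log2 difference of Zic1 ranged from -0.0433 to 0.705 with a library left out, and that of Zic4 from 0.373 to 1.21. For Zic1 it was reversed without NMDA + PBS replicate 1 and 1.11 against that library alone. Of the other log2 differences of members, 72 moved by less than the spread between libraries and 11 by more, all higher in NMDA + SCF. The causes were not tested. Depth limits Otx1, with at most 6 fragments in a library, and Wnt7a and Wnt7b in the controls, with at most 2.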
